A study of Drosophila melanogaster with 3 samples.

Results

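The genes cbt (cabut, FBgn0043364) and ush (u-shaped, FBgn0003963) overlap near the left end of chromosome arm 2L. Described here are all listed regions of Schnurri (Shn) signal whose summit, the position of highest signal, lies in 1 interval. It spans both genes plus 10 kb on each side. That interval runs from 466220 to 550560 of 2L (84341 bp, dm6). It was selected by the rank of its strongest peak in these same data, so its ranks and signals are a description and were not tested. The interval held 13 of the 3586 peaks in the authors' list of reproducible peaks and 67 of the 30000 in the pooled list. It held 46, 61 and 63 of the 30000 regions in the lists of replicates 1, 2 and 3. The pooled list was deposited as peaks and background, so being listed there does not make a region a binding site.

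The samples were whole Drosophila melanogaster embryos of mixed sex, 0 to 24 h old, from a transgenic line with Schnurri fused at its C-terminus to GFP. Chromatin sonicated to 200 to 800 bp was precipitated with an antibody to GFP and sequenced (ChIP-seq), in 3 biological replicates that form 1 group with no second condition. The labels do not name the promoter that drives the tagged protein, and the control experiment they point to was not analysed here. Because all tissues and stages were mixed, more cells bound and more binding per cell cannot be told apart at any site.

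Schnurri is a large zinc finger protein that joins the Smad proteins Mad and Medea when the BMP ligand Dpp signals, and this complex is best known for silencing genes such as brk. ush encodes a multiple zinc finger cofactor of the Friend of GATA family, which binds the GATA factor Pannier and lowers its activity, and its dorsal expression in the embryo depends on Dpp. cbt encodes a zinc finger transcription factor related to the TGF-beta-inducible early genes of vertebrates, is needed for closure of the dorsal epidermis, and responds to dietary sugar through the factors Mondo and Mlx.

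The genes overlap on opposite strands. ush (476220 to 540560, plus strand, 64341 bp) has annotated transcription start sites (TSSs) at 476220, 490835, 523466 and 523736. cbt (476446 to 479688, minus strand, 3243 bp) has a single TSS at 479688 and lies entirely within the first intron of the ush transcripts that start at 476220, which runs at least from 476332 to 489516. Sequence upstream of cbt is therefore also intronic sequence of ush, and distance alone assigns a peak there to neither gene. On the left the interval holds MED15, a Mediator subunit gene, and CG4297. On the right it holds lwr, which encodes the SUMO-conjugating enzyme, Spp (signal peptide peptidase), the acetylcholine receptor subunit gene nAChRbeta3 and part of Ets21C, an ETS transcription factor gene.

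The sequences below are the 201 bp centred on 6 of the reproducible summits, read from RefSeq's Release 6 (dm6) genome, in lower case with matches to the motifs searched in capitals. The first pair are the strongest sites of the interval, both upstream of cbt. The third is the outermost of the cbt cluster, and the last 3 lie in introns of ush.
Summit 481076, 1388 bp upstream of cbt (chr2L:480976-481176, plus strand): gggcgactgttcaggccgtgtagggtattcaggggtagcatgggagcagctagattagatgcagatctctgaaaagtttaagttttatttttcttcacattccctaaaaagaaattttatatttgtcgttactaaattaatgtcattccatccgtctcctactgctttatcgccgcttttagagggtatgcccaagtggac
Summit 480110, 422 bp upstream of cbt (chr2L:480010-480210, plus strand): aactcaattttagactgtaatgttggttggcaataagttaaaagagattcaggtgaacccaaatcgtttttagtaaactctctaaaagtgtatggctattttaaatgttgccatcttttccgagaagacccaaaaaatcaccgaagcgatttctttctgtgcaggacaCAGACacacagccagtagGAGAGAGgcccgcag
Summit 481895, 2207 bp upstream of cbt (chr2L:481795-481995, plus strand): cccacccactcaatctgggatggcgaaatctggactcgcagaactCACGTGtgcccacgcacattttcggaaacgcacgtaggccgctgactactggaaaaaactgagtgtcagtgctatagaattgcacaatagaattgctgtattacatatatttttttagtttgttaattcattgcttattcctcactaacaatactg
Summit 485876, first intron of ush (chr2L:485776-485976, plus strand): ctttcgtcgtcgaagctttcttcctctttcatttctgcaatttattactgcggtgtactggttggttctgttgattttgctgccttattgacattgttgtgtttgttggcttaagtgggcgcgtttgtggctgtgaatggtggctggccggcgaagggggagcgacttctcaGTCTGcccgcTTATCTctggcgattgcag
Summit 510651, between the ush starts at 490835 and 523466 (chr2L:510551-510751, plus strand): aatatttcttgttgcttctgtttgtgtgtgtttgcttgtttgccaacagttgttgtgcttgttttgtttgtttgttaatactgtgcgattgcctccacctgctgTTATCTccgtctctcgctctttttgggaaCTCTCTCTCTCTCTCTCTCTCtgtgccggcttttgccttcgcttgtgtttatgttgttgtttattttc
Summit 520822, 2644 bp upstream of the ush start at 523466 (chr2L:520722-520922, plus strand): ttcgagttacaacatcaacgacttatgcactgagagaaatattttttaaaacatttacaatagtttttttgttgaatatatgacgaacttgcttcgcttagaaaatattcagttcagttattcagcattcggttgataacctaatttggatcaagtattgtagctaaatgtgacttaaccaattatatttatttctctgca

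The strongest site lay upstream of cbt, 4856 bp downstream of the first TSS of ush. Its peak covered 480884 to 481296, and its summit at 481076 had a pooled signal of 1818, the authors' own value per peak, which ranks peaks within 1 list only. This is 90.0% of the highest signal in the pooled list. It is 46.5 times the median of the pooled list, which includes background, and 12.8 times the median of the reproducible list. In replicates 1, 2 and 3 the signal was 534, 629 and 655, and the rank by signal was 3, 2 and 2 of 30000. All 3 replicates thus placed it among their 3 strongest regions. Its summit fell at 481099, 481079 and 481078 in the same replicates, within 23 bp of the pooled summit. Among the 15 reproducible peaks of highest signal, 3 had a summit over 1 kb from any protein-coding TSS, and this was one of them. Of the 50 of highest signal 12 did, and of all reproducible summits 65.1% lay within 1 kb.

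The second site, at 480110, lay 422 bp upstream of cbt. Its pooled signal was 741, at rank 48 of 3586. The signal was 235, 261 and 252 in replicates 1, 2 and 3, at ranks 46, 45 and 69. The order of the pair was the same in every replicate, and so, closely, was their ratio. The signal at 481076 was 2.27, 2.41 and 2.59 times that at 480110 in replicates 1, 2 and 3 (mean 2.42 ± 0.163, SD, n = 3).

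Weaker peaks flanked this pair on both sides. Inside cbt, a summit at 479056 lay 632 bp downstream of the TSS, within the 5' UTR of an unspliced transcript, with a pooled signal of 126 and rank 2173. It ranked 2591, 2697 and 1250 in replicates 1, 2 and 3. In replicate 3 the region was divided into overlapping peaks with summits at 478936 and 479149, ranked 1250 and 2017. Replicate 1 also had overlapping peaks there, with summits at 479137 and 479383, ranked 2591 and 16760. The outermost, at 481895, had a pooled signal of 108 and rank 2792, and here the replicates differed. It ranked 1734 and 1785 in replicates 1 and 2 but 19705 in replicate 3, where its signal of 16.3 had a −log10 q of 0.491, although the summits lay within 11 bp of the pooled summit in all 3.

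The 4 summits from 479056 to 481895 were spaced 1054, 966 and 819 bp apart. Over the whole reproducible list, 76 of 3586 peaks (2.12%) had 3 or more other summits within 3 kb, and 63.3% had none. Of the 15 strongest peaks, only the peak at 481076 had 3 or more such neighbours.

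**Figure D1:**
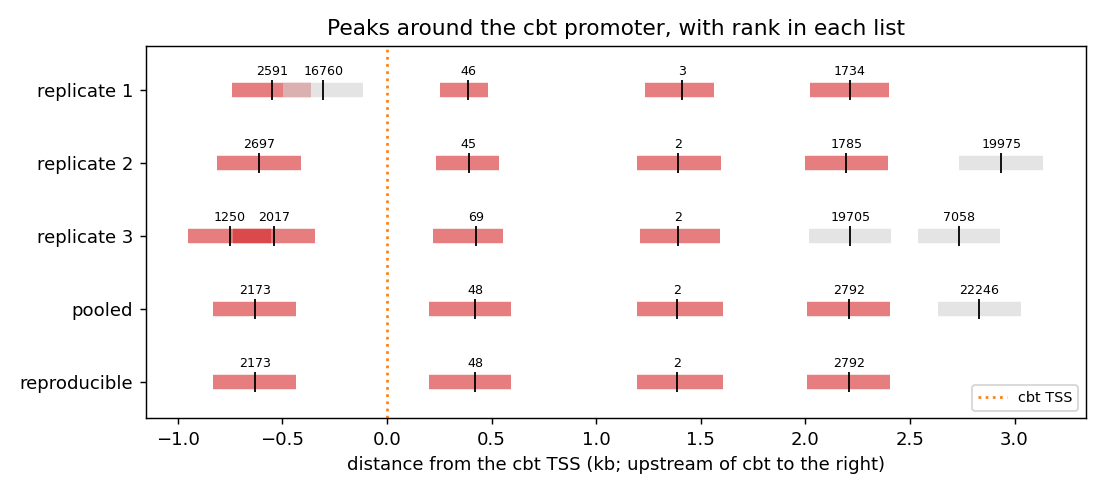
Peak intervals (bars) and summits (black ticks) from 1 kb downstream to 3 kb upstream of the cbt TSS, in kb, for the 3 replicate lists, the pooled list and the reproducible list, with each peak's rank printed above it. Red bars rank within the first 3586 of their list and grey bars below it. The summits 422, 1388 and 2207 bp upstream of cbt line up across lists. The peak at 2207 bp is red in replicates 1 and 2 and grey, at rank 19705, in replicate 3. Grey peaks further upstream in replicates 2 and 3 and in the pooled list do not line up and have no counterpart in replicate 1.

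Of the 4 annotated starts of ush, those at 490835, 523466 and 523736 had a reproducible summit within 1 kb, and the start at 476220 had none; its nearest was 2836 bp downstream, inside cbt. The summit at 490257 was 578 bp upstream of the start at 490835, which ush shares with lncRNA:CR46258, and within a 5' UTR exon of a transcript that starts at 476220. It had a pooled signal of 213 and rank 901, and signals of 28.5, 92.8 and 80.5 in replicates 1, 2 and 3. Its ranks were 2742, 587 and 993, weakest in replicate 1. A separate pooled peak at 490879, 44 bp downstream of that start, ranked 5119 and was outside the reproducible list. It ranked 24056 in replicate 2 and 1828 in replicate 3 and had no match in replicate 1.

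The summit at 523733 lay 3 bp upstream of the start at 523736 and 267 bp downstream of that at 523466, in the 5' UTR, with a pooled signal of 164 and rank 1409. Its signal was 19.1, 38.9 and 95.3 in replicates 1, 2 and 3, and its rank 6167, 2772 and 694. The replicates thus differed by 8.89 times in rank at this promoter, against 1.53 times at 480110 upstream of cbt.

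The remaining peaks of ush were intronic and over 2 kb from any of its starts. The summit at 520822, 2644 bp upstream of the start at 523466, had a pooled signal of 192 and rank 1076. It had signals of 46.5, 63.1 and 75.3 and ranks 1342, 1222 and 1163 in replicates 1, 2 and 3, a span of 1.15 times, the narrowest of the 13. At 485876, in the first intron and 6188 bp upstream of cbt, the pooled signal was 243 and the rank 675. It ranked 827 and 188 in replicates 2 and 3. Replicate 1 had no overlapping peak, and its nearest summit was 249 bp away at rank 13034.

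The widest disagreement was at 510651, 12815 bp upstream of the start at 523466, with a pooled signal of 163 and rank 1415. The best-ranked overlapping regions had signals of 11.3, 29.3 and 128 in replicates 1, 2 and 3, at ranks 25114, 4403 and 352. The overlapping region in replicate 1 had its summit 333 bp away, so that replicate gave no peak at the same position. The summit at 510651 lies 8415 bp from the start of lncRNA:CR46259, in whose exon the pooled list had a peak at 500948, rank 4759. The summit at 516223, with a pooled signal of 103 and rank 3021, was the lowest of the interval and ranked 2209, 2929 and 5156.

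No reproducible summit lay in the 20394 bp between 490257 and 510651, or downstream of the last start of ush, where the coding exons common to all its transcripts lie. The pooled list had 12 peaks in those 16824 bp, and 3 of them had summits in coding sequence, at 536499, 538253 and 539047, with ranks 6111, 12388 and 12266.

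**Figure D2:**
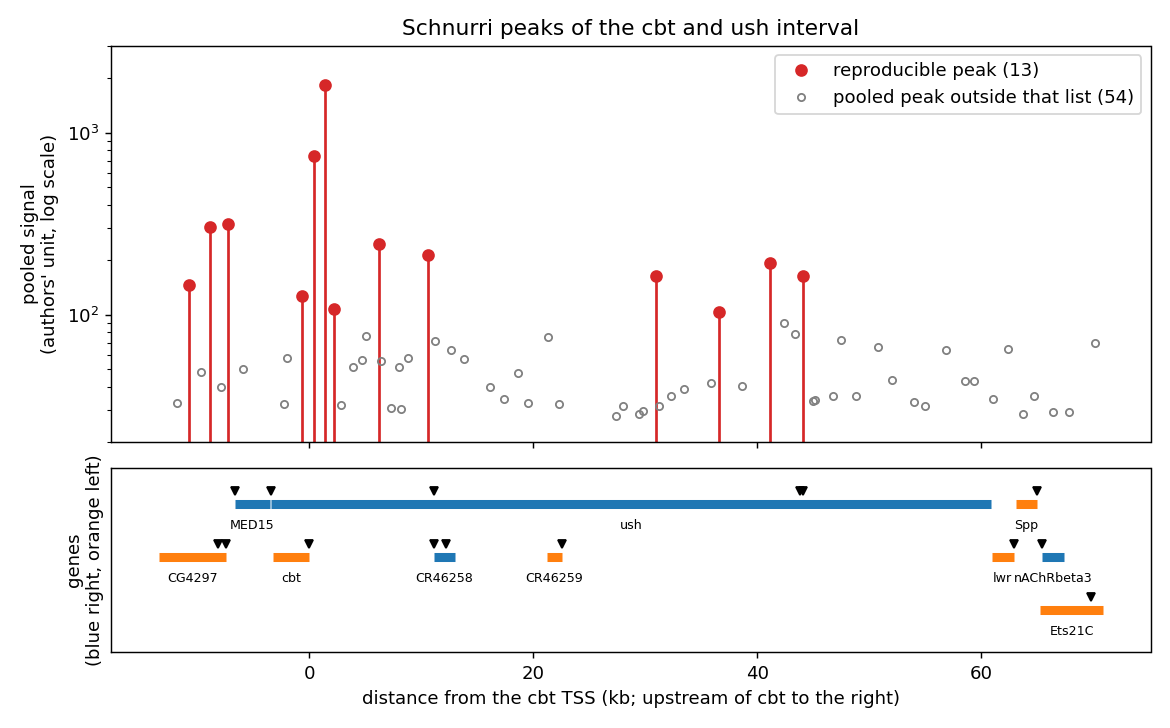
Pooled signal (authors' unit, log scale) of the 67 pooled peaks by distance from the cbt TSS in kb, with the 13 reproducible peaks as filled red points and the other 54 as open grey points; genes and their TSSs (triangles) are drawn beneath. The peaks 422 and 1388 bp upstream of cbt, with signals of 741 and 1818, stand above all others in the interval.

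The left flank held 3 reproducible peaks and the right flank none. The summit at 472442, in the gap between CG4297 and MED15, was 242 bp upstream of CG4297 and 571 bp upstream of MED15, and had a pooled signal of 316 and rank 404. It ranked 496, 577 and 248 in replicates 1, 2 and 3. The summit at 470776, in an intron of CG4297 and 779 bp downstream of its start at 471555, had a pooled signal of 305, rank 434, and ranks of 392, 373 and 586. Next to the pair at cbt these were the strongest peaks of the interval, and the peak at 481076 had 5.88 ± 1.29 and 5.86 ± 0.465 times their signal (SD, n = 3 replicates). The summit at 468915, also in CG4297, had a pooled signal of 146 and ranked 1743, 1419 and 2766.

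Next to the edges, the reproducible summit nearest the left edge on the inside was 468915, 2695 bp from it, and the next outside was 442102, 24118 bp from the edge, with a signal of 228. On the right the last one inside was 523733, and the next outside was 552741, 2181 bp past the edge and 182 bp from a TSS of Ets21C, with a signal of 517 and rank 125. At the lower end of the reproducible list, whose last peak had a signal of 91.6, the highest pooled peak of the interval left out was at 522065, 1401 bp upstream of the start of ush at 523466, with a signal of 89.7 and rank 3697. That peak ranked 2379, 6454 and 4257 in replicates 1, 2 and 3.

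A replicate's top list is taken here as its 3586 regions of highest signal. The top lists of all 3 replicates held 8 of the 13 peaks (61.5%, Wilson 95% interval 35.5 to 82.3), against 53.8% of all reproducible peaks. Those 8 were the 3 of the left flank, the summits at 479056, 480110 and 481076 at cbt, and 490257 and 520822 at ush. Replicates 1, 2 and 3 held 10, 12 and 11 of the 13, against 74.2%, 85.0% and 78.1% of all reproducible peaks. The share of the whole list lies within the Wilson interval for this locus. Peaks of 1 locus are not replicates, so no conclusion is drawn from that. The pooled signal had a median of 192 over the 13, against 142 over all 3586.

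**Figure D3:**
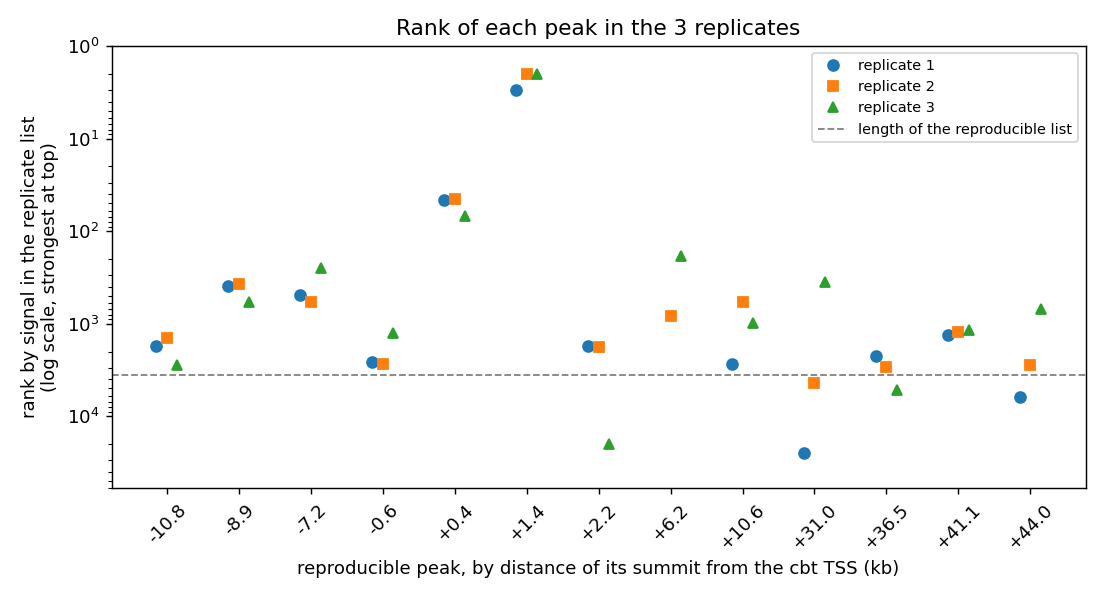
Rank by signal (log scale, strongest at the top) of each of the 13 reproducible peaks in replicates 1 to 3, ordered by distance of the summit from the cbt TSS in kb; the dashed line marks rank 3586. The replicates lie close together for the peaks 422, 1388 and 41134 bp upstream of cbt and spread most for that at 30963 bp, from 352 to 25114. The replicate 1 point at 30963 bp is an overlapping region with its summit 333 bp away, and replicate 1 has no point at 6188 bp.

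Replicate summits lay a median of 10.5 bp from the pooled summit over 38 matches in the interval, against 15 bp over all reproducible peaks. By replicate the medians were 27.5, 11 and 5 bp in the interval, against 21, 12 and 13 bp over all. Over the 12 peaks matched in all 3 replicates, the median span of ranks was 1.16 on the log2 scale, against 1.24 over all. Matches were by overlap and include the replicate 1 region with its summit 333 bp from 510651.

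Of the 13 summits, 6 (46.2%, Wilson 95% interval 23.2 to 70.9) were within 1 kb of a protein-coding TSS, against 65.1% of all reproducible summits. The intervals on these shares cover counting error over peaks only, and peaks of 1 locus are not replicates. Of the 67 pooled peaks in the interval 13 (19.4%, 11.7 to 30.4) were reproducible, against 12.0% of the pooled list. The reproducible list is the same set as the 3586 pooled peaks of highest signal, so this share describes pooled signal only. A −log10 q of 2 or more, the peak caller's measure of confidence, was reached by 9 of 46 regions in replicate 1, against 7.95% of that list. It was reached by 17 of 61 in replicate 2, against 17.6%, and by 28 of 63 in replicate 3, against 24.0%. The replicates thus stood in the same order in the interval as in their whole lists, replicate 1 lowest and replicate 3 highest.

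In every list the interval held more regions than most windows of its length. Against 1567 windows of the same length on the 5 large arms, clear of the interval, the 13 reproducible summits compare with a median of 2 and a highest count of 26, and 99.7% of windows held fewer. In the pooled list the counts were 67 in the interval and a median of 19 in the windows, with 1 window holding as many or more. In replicates 1, 2 and 3 the windows had medians of 20, 19 and 19, and 0, 2 and 5 of them held as many regions as the interval or more. The windows include long runs with no reproducible summit, as at the starts of 2R and 3R. In the pooled list, deposited as peaks and background, 19 of the 67 regions reached a −log10 q of 2. The share of the whole pooled list that reached this value was not counted. Whether 19 of 67 is a high or a low share for that list therefore cannot be told. Since the interval was taken up for its strong peak, these counts are a description.

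**Figure D4:**
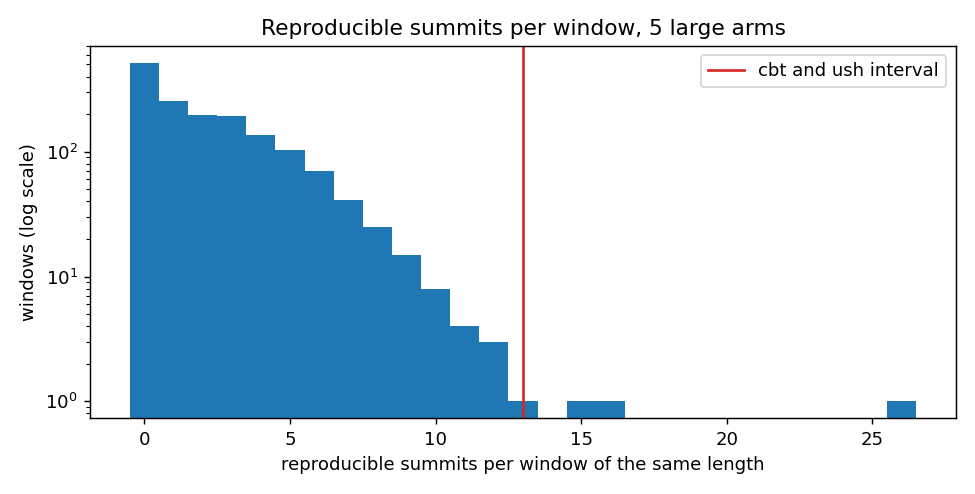
Number of windows (log scale) by the count of reproducible summits in them, for the 1567 windows of 84341 bp on the 5 large arms that are clear of the interval. The red line marks the interval at 13 summits, and 4 windows held as many or more, up to 26.

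Within gene bodies, ush held 10 reproducible summits, including the 4 around cbt, and cbt itself held 1. Of 13945 protein-coding genes 89.6% held none and 2 held more than ush. Among the 307 genes of 50 kb or longer the median was 0, and the same 2 genes held more than ush. The count for ush depends on its long transcripts: 5 of the 10 summits lay in the first intron, in or upstream of cbt.

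Ranks most like those of the peak at 481076, by the summed difference of log2 rank over the 3 replicates, were found at Ugalt (difference 2.17, ranks 2, 3 and 4), CG14100 (3.58, ranks 1, 1 and 1) and Chro (3.64, ranks 5, 5 and 6). Likeness of this kind mainly reflects a place near the top of each list. All 3 of those peaks lay within 100 bp of a TSS and had no other reproducible summit within 3 kb, whereas the peak at 481076 had 3.

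Of 14 motifs searched on both strands within 100 bp of the summits, at least 1 was found at 6 of the 13. The strongest site, at 481076, matched none of them. The site at 480110 held the short Smad site GTCTG on the minus strand starting 68 bp to the right of the summit and the GAGA repeat GAGAGAG starting 86 bp to the right. Those motifs were present at 2 and 3 of the 13 summits, against 19.8% and 5.13% of all reproducible summits. The E-box CACGTG was at 1 of the 13, the summit at 481895, against 2.73% of all, and is among the sequences shown above.

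In the introns of ush, the GATA site AGATAA was at 2 of the 13 summits, against 12.4% of all. At 510651 it started 4 bp to the right of the summit, on the minus strand, beside a run of overlapping GAGA repeats that started 33 bp to the right. At 485876 it started 82 bp to the right, also on the minus strand, with a short Smad site starting 72 bp to the right. The Brinker site GGCGCC, the core bound by the repressor Brinker, was at 1 of the 13, against 4.04% of all, and occurred there as a pair at 53 and 40 bp to the left of the summit at 490257, in the 5' UTR exon of ush, shown here with 5 bases on each side.
Brinker matches upstream of the ush start at 490835 (chr2L:490199-490227, plus strand): gaattGGCGCCtttctggGGCGCCatcta

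No summit had a match to the DRE (TATCGATA, at 5.19% of all), the palindromic Smad box GTCTAGAC (0.139%), the GC-rich Mad site GCCGNCGC (2.01%), the Schnurri silencer element (0.139%), the AP-1 site TGANTCA (5.72%), the CRE TGACGTCA (0.363%), the Zelda site CAGGTAG (1.09%), the GC box GGGGCGG (1.56%) or the CACCC box GGGTGTG (1.76%). The interval as a whole held 24 matches to the GC-rich Mad site (28.5 per 100 kb, against 13.2 over the 6 arms), none within 250 bp of the 13 summits, and no match to the silencer element (against 0.278 per 100 kb). GAGA repeats, counted with overlaps, were at 93.7 per 100 kb, against 24.0 over the arms. GC content within 100 bp of the summits had a median of 41.3% over the 13, against 38.1% over all. A match is a description of the letters in these windows and does not show which factor binds.

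Promoter peaks were also counted at other genes of the processes in which cbt and ush act. Of all protein-coding genes, 21.1% had a reproducible summit within 1 kb of a TSS. Among 13 genes of dorsal closure and JNK signalling, which include cbt, 8 had one (61.5%, Wilson 95% interval 35.5 to 82.3). The highest ranked were cbt at 48 and mys, which encodes an integrin subunit, at 741. Among 10 genes of sugar sensing and the clock, 4 had one (40%, 16.8 to 68.7). The highest ranked were cbt and bigmax, which encodes the partner of Mondo, at rank 640 and 126 bp upstream of the TSS.

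Among 10 GATA factors and partners of U-shaped 3 had one (30%, Wilson 95% interval 10.8 to 60.3). The highest ranked were ush at 901 and srp, a GATA factor gene of blood and fat body, at 1560. Of 13 BMP-responsive genes of the dorsal ectoderm and amnioserosa 3 had one (23.1%, 8.18 to 50.3). The highest ranked were ush and Ance, which encodes an angiotensin-converting enzyme relative, at 2024. The best-ranked regions overlapping this Ance peak ranked 26, 86 and 104 in replicates 1, 2 and 3, and such a match can be a neighbouring summit. Of 8 KLF and Sp zinc finger genes cbt was the only one with a promoter peak (12.5%, 2.24 to 47.1). The Wilson intervals of the 5 lists overlap, but each list includes cbt or ush. The lists are therefore not independent, and the overlap decides nothing about how they differ. The lists were drawn up with results of these data known, and their counts were not tested.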

How the data were processed

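ChIP-seq against GFP was carried out on 3 replicates of embryos expressing tagged Schnurri. Per the deposited notes, the authors called regions in each replicate and in the pooled replicates to feed the irreproducible discovery rate (IDR) step, a filter on how well ranks repeat between replicates; beside the alignments, the lists had a source file that also served the control-normalized signal. The deposited signal of a region is comparable within 1 list only, and the deposited −log10 q has 1 shared maximum at the strongest regions of each list. The reproducible list held the same regions as the 3586 pooled regions of highest signal. The IDR threshold, aligner and caller: not given in the sources used here. Sequencing depth is unknown. The dm3 lists were not used.

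Python 3.11.15 was used, with numpy 2.4.6, pandas 2.3.3 and matplotlib 3.10.9, on the 5 dm6 lists, with 1-based positions. Genes came from Ensembl release 115 (BDGP6.54; 13945 protein-coding genes, 19252 TSS positions, 6 arms) and sequence from RefSeq's Release 6 assembly; all peaks lay within its arm lengths. Regions were ranked by signal, and a peak's match was the best-ranked region overlapping it by 1 bp or more, which can be a neighbouring summit. Of unequal lists, shares were given. Matching, distance and motif routines were tested on simulated data. No p-value was computed, as the locus, gene lists and motifs were chosen with earlier results of these data known. Named genes were cbt, ush, the genes of the interval, the 3 of most similar ranks and the 2 best of each list. Alternatives were the flank, overlap, top-list length, TSS and motif windows, and each replicate left out.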

Additional observations from a re-analysis of the deposited data

How the results depend on the processing

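Of 43 alternative values, 33 stayed within 1.5 times the reported count or within the replicate SD, and 10 moved further. The values are counts, ranks and offsets, which have no direction that could change. With only regions at or above each list's median signal, the interval held 42 regions in the pooled list, 30 in replicate 1 and 41 in replicate 3. With top lists of 1793 regions, 5 of the 13 peaks were in all 3, against 30.4% of all reproducible peaks. Within 500 bp of a TSS there were 3 of the 13 summits, against 55.9% of all. Pairs of summit and motif numbered 9 within 100 bp, 3 within 50 bp and 23 within 250 bp. With a 5 kb window the genes with a peak were 6 of 13 in the BMP-responsive list, 5 of 10 in the GATA list and 2 of 8 in the KLF and Sp list, against 38.2% of all protein-coding genes. These alternatives by construction keep fewer regions or widen or narrow the window.

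Leaving out 1 replicate gave 8 to 10 of the 13 peaks in the top lists of both others, a mean rank of 2 to 2.5 for the peak at 481076, and a median summit offset of 7.5 to 18 bp. With no flank the interval held 10 reproducible peaks and with 20 kb 14. No paired analysis was possible because the samples form 1 group. Read depth is unknown, and whether peaks missing from 1 list were below its detection limit was not tested.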
